A study of Homo sapiens with 6 samples.

Results

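The 10 genes described here belong to Wnt signalling through beta-catenin: the gene of beta-catenin itself (CTNNB1) and 9 genes that beta-catenin is known to switch on in many tissues, AXIN2, LGR5, NKD1, LEF1, TCF7, RNF43, ZNRF3, TBX3 and SP5. They were taken by symbol as a fixed list, and all 10 matched 1 Ensembl identifier each among the 60483 in the count tables. The libraries came from the liver cancer cell line HepG2, transfected either with an siRNA against FTO (3 libraries, called FTO siRNA 1 to 3) or with a control siRNA (3 libraries, called control siRNA 1 to 3). FTO removes the methyl group of N6-methyladenosine from RNA, and the study asked which genes it regulates in hepatocellular carcinoma. All cells were grown in RPMI-1640 with fetal bovine serum, and the labels give passages 16 to 19 for both groups. The labels do not state whether each library had a culture of its own, so p-values measure the spread between these libraries, which may be technical.

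Without a Wnt signal, a destruction complex built on APC, axin and the kinase GSK3 marks beta-catenin for degradation. A Wnt protein bound to Frizzled and LRP receptors stops this, and beta-catenin then enters the nucleus and activates genes together with DNA-binding proteins of the TCF/LEF family. Many of the activated genes act back on the pathway, some as brakes and some as amplifiers. In liver the pathway marks the hepatocytes around the central vein, and CTNNB1 is often mutated in liver cancer. HepG2 itself carries a deletion in CTNNB1 that removes the sites by which the destruction complex recognises the protein, which makes the pathway constitutively active in these cells.

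TCF/LEF proteins bind a short core sequence, and the promoters show which members carry it next to their start. The search used CTTTGNN, with A or T in both last places, on either strand over the 250 bases before each start site in RefSeq's table (GRCh38.p14), which held 7 windows for 5 members (CTNNB1, LEF1, RNF43, SP5 and TCF7). Of these, 2 windows held a match, where 11.96% of all 35116 windows did. SP5 held 3 matches, a number reached by 43 windows of the table or 0.1225%. They began 148, 109 and 84 bases before its start site, the middle one on the gene's own strand and the outer pair on the opposite one. A window of TCF7, before the more downstream of its start sites, held 1 match on the opposite strand. The windows of SP5, of that TCF7 start and of RNF43, the member with the lowest fitted log2 fold change below, are shown to compare a promoter with several core matches, one with a single match and one with none; capitals mark the matches, and each sequence is written on the gene's strand.
SP5, chr2:170715087-170715336, plus strand: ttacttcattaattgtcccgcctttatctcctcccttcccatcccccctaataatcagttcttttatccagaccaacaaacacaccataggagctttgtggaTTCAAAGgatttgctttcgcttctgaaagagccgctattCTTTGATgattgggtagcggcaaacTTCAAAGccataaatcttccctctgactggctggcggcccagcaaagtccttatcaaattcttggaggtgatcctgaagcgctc
TCF7, chr5:134123368-134123617, plus strand: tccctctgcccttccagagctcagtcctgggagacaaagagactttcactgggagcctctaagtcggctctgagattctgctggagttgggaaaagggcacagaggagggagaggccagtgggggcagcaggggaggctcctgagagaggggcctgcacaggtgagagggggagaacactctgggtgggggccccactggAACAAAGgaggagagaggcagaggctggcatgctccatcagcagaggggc
RNF43, chr17:58417535-58417784, minus strand: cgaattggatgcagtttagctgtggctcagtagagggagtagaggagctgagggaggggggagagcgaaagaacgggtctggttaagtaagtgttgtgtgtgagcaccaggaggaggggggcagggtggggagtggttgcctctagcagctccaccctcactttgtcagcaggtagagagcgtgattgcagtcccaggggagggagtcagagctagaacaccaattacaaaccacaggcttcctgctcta
A match describes these letters only, and no binding was measured.

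**Figure D1:**
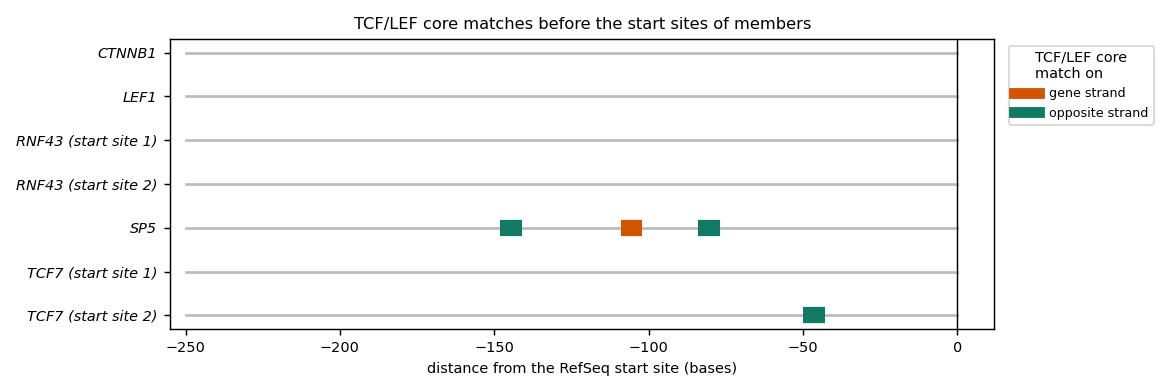
Positions of TCF/LEF core matches in the 250 bases before the RefSeq start sites of 5 members, with the distance from the start site in bases on the horizontal axis and 1 line per window. SP5 held 3 matches and the downstream start site of TCF7 held 1, and the other 5 windows held none.

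FTO was the check of the labels. Its level was 11.2, 14.5 and 5.21 CPM (counts scaled to library size, with TMM factors between libraries) in FTO siRNA 1, 2 and 3, against 40.8, 37.96 and 38.8 CPM in controls 1, 2 and 3, so every library labelled FTO siRNA held less than every control (log2 fold change -1.93 ± 0.32 SE; adjusted p = 0.00932, from edgeR's quasi-likelihood test with Benjamini-Hochberg adjustment, as for every adjusted p below unless another tool is named). Total counts lay between 15713279 and 18390953 per library. On this scale 3 counts are worth 0.153 to 0.186 CPM in FTO siRNA libraries and 0.181 to 0.190 CPM in controls, a limit that covers counting error only. Over all 15025 genes tested, 11.4% passed an adjusted p of 0.05. The 3 values of one group did not overlap the 3 of the other for 36.5% of them, and the median log2 fold change of all tested genes was 0.04. FTO siRNA 3 stood apart from the other 2 libraries of its group, and results that change without it are given in both forms. The liver markers fixed for the check were all present: the 9 genes, among them ALB and AFP, summed to between 15747 and 27150 CPM in FTO siRNA libraries and between 22897 and 32631 CPM in controls, and none passed the test by edgeR. APOB, with 2616 ± 1344 CPM in FTO siRNA libraries and 6890 ± 1620 CPM in controls (SD, n = 3 each), was the 1 marker at an unadjusted p under 0.05 (edgeR adjusted p = 0.065), and it was called lower by DESeq2 (adjusted p = 0.00104) and by limma-voom (adjusted p = 0.0426).

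No member passed the test after FTO siRNA. Of the 10, 7 had enough counts to be tested (CTNNB1, AXIN2, LGR5, TCF7, RNF43, TBX3 and SP5) and 3 did not (NKD1, LEF1 and ZNRF3). Of those 7, 0 were higher and 0 lower at an adjusted p of 0.05 by edgeR and by limma-voom, where 11.4% of all tested genes passed by edgeR, and DESeq2 called 1, RNF43, lower. At an unadjusted p under 0.05 by edgeR there were 2 of the 7, RNF43 and SP5, on opposite sides of 0. Of the 15025 tested genes 4197 reached the same threshold, so this share is near the background. Without FTO siRNA 3 these 2 of 7 passed in edgeR, in a fit that called 30% of all tested genes. The groups did not overlap for 3 of the 7 (SP5 higher, RNF43 and TCF7 lower), or about the 36.5% of all tested genes. In simulated data this fit called 0% of the genes changed 1.5-fold and 31.3% of those changed 2-fold. A member that did not pass may therefore still differ by such an amount.

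**Figure D2:**
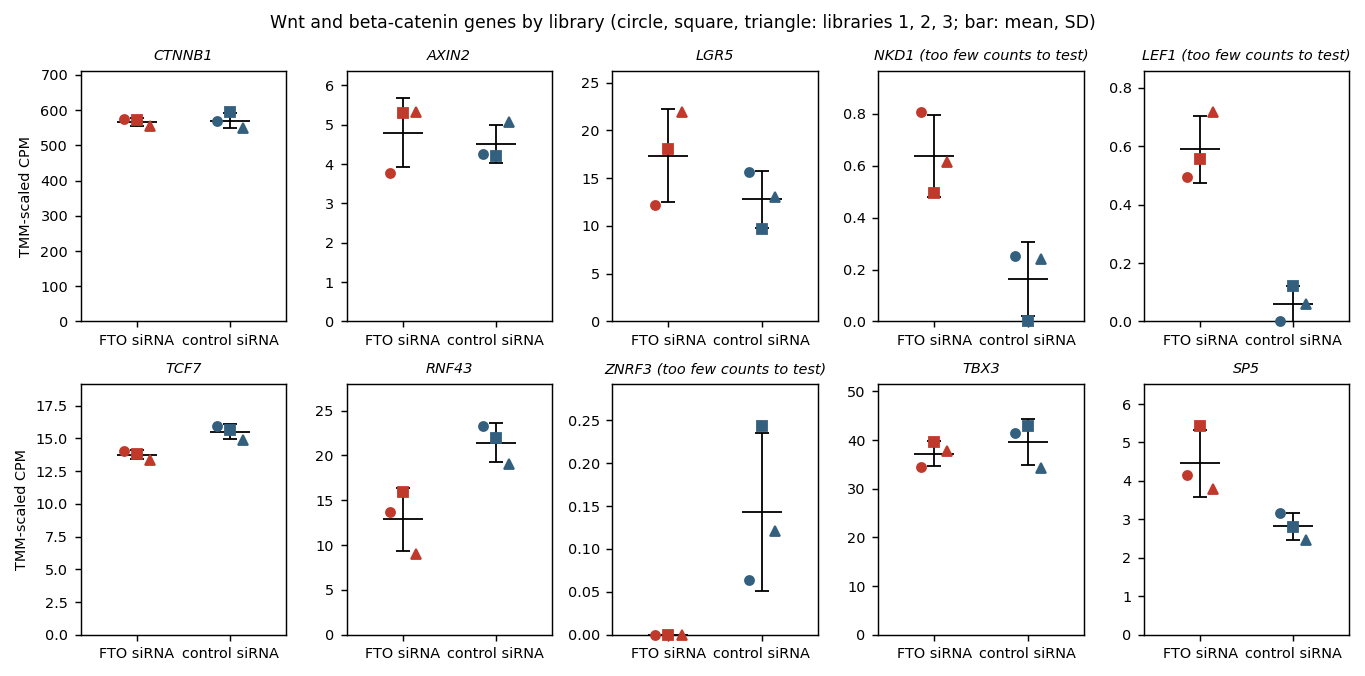
TMM-scaled CPM (vertical axes, each from 0) of the 10 members in the 3 FTO siRNA and the 3 control siRNA libraries, with the mean and SD as bars. CTNNB1 lay between 550.0 and 594 CPM in all 6 libraries, the groups separated for RNF43 and SP5 in opposite directions, and NKD1, LEF1 and ZNRF3 stayed under 1 CPM.

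CTNNB1, the signal carrier itself, was the most abundant member. Its level was 575, 573 and 554 CPM in FTO siRNA 1, 2 and 3, against 569, 594 and 550.0 CPM in controls 1, 2 and 3. The ranges overlapped nearly in full, and the mean was 567 ± 11.7 CPM with FTO siRNA and 571 ± 21.9 CPM with control siRNA (SD, n = 3 each). The log2 fold change was -0.01 ± 0.15 SE with a 95% interval of -0.34 to 0.33 (edgeR adjusted p = 0.979), which bounds a change in beta-catenin mRNA in these libraries. This is a level of RNA; the amount and place of the protein, on which the pathway turns, were not measured here.

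AXIN2 encodes a scaffold of the destruction complex that beta-catenin induces, a brake on its own signal, and is the most used readout of the pathway. It was present at 3.78, 5.31 and 5.31 CPM in FTO siRNA 1, 2 and 3, against 4.25, 4.204 and 5.07 CPM in controls 1, 2 and 3. FTO siRNA 1 was the lowest of the 6 and the other libraries lay within a narrow span, so the groups overlapped. Its log2 fold change was 0.09 ± 0.23 SE (95% interval -0.43 to 0.62, edgeR adjusted p = 0.831), and it went below 0 without FTO siRNA 2 or without FTO siRNA 3. In GENCODE 29, 25.2% of the exon bases of AXIN2 also lie in exons of AC004805.1, which had 0 counts in every library. NKD1, an inhibitor that acts on Dishevelled, the relay behind the receptor, had too few counts to test. It had 13, 8 and 12 counts in FTO siRNA 1, 2 and 3, against 4, 0 and 4 in controls 1, 2 and 3. Every FTO siRNA library thus had more counts than every control, with a ratio of 3.88 per scaled library over the summed counts (95% counting interval 1.76 to 9.71, which leaves out the spread between libraries). In the fit with no filter NKD1 did not pass (edgeR adjusted p = 0.142).

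RNF43 and ZNRF3 are related membrane ubiquitin ligases that remove Frizzled receptors from the cell surface. RNF43 stood at 13.7, 15.9 and 8.99 CPM in FTO siRNA 1, 2 and 3, against 23.3, 21.99 and 19.02 CPM in controls 1, 2 and 3. All 3 FTO siRNA values lay below all 3 control values, and FTO siRNA 3 was the lowest. The means were 12.9 ± 3.54 CPM with FTO siRNA and 21.4 ± 2.20 CPM with control siRNA (SD, n = 3 each), or 0.599 of the control level in the fit. The log2 fold change was -0.74 ± 0.23 SE (95% interval -1.26 to -0.22), which did not pass after correction (edgeR adjusted p = 0.0726). It passed with DESeq2 (adjusted p = 0.0239) and, in edgeR, without FTO siRNA 3 (-0.56 ± 0.16, adjusted p = 0.0244), and over the other alternatives the adjusted p was at most 0.224. In GENCODE 29, 20.3% of its exon bases lie in exons of other genes in the tables, SUPT4H1 and TSPOAP1-AS1, and since the counting rules are not given, reads there may be shared. SUPT4H1 was at 62.8, 49.0 and 42.4 CPM in FTO siRNA 1, 2 and 3, against 37.4, 41.3 and 42.4 CPM in controls 1, 2 and 3 (log2 fold change 0.35, edgeR adjusted p = 0.233), and its part in the RNF43 value was not tested. ZNRF3 had 0 counts in all 3 FTO siRNA libraries, against 1, 4 and 2 counts in controls 1, 2 and 3. Both groups were at or near the limit of 3 counts, and no fold is given. In the fit with no filter ZNRF3 did not pass (edgeR adjusted p = 0.158).

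LGR5, a receptor for R-spondins, the secreted proteins that hold RNF43 and ZNRF3 back and so amplify the signal, overlapped between groups. The level was 12.1, 18.04 and 21.9 CPM in FTO siRNA 1, 2 and 3, against 15.6, 9.63 and 13.0 CPM in controls 1, 2 and 3. FTO siRNA 3 was the highest library and control 2 the lowest, while FTO siRNA 1 lay below controls 1 and 3. With a log2 fold change of 0.44 ± 0.26 SE (95% interval -0.16 to 1.05, edgeR adjusted p = 0.31), neither no difference nor a doubling was outside the interval.

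LEF1 and TCF7 encode DNA-binding partners of beta-catenin, and both are also known as transcription factors of T lymphocytes. TCF7 was steady at 14.1, 13.8 and 13.4 CPM in FTO siRNA 1, 2 and 3, against 16.0, 15.7 and 14.9 CPM in controls 1, 2 and 3. Every FTO siRNA value lay below every control value, by a margin that was small next to the levels. The log2 fold change was -0.17 ± 0.15 SE (95% interval -0.52 to 0.18, edgeR adjusted p = 0.513). LEF1 had 8, 9 and 14 counts in FTO siRNA 1, 2 and 3, against 0, 2 and 1 counts in controls 1, 2 and 3, where it was close to absent. Its groups did not overlap, and the ratio over the summed counts, 31 against 3, was 9.71 per scaled library (95% counting interval 3.03 to 49.6). It had too few counts for the filter of the test. In the fit with no filter it passed (edgeR adjusted p = 0.0241), where 3.56% of all genes in that fit were called higher. Even in FTO siRNA libraries its level per kilobase of exon was 0.110 CPM, where that of TCF7 was 1.37.

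Several markers of lymphocytes and other leukocytes were higher in FTO siRNA libraries than in controls, as LEF1 was. This is a difference between the groups, and whether the markers followed LEF1 from library to library was not tested. Of the 10 markers fixed, 7 could be tested, 5 rose and none fell, with a median log2 fold change of 3.28. Of all tested genes, 7.53% rose and 3.83% fell. PTPRC, CD3D, CD2 and NKG7 had at most 6 counts in any control. They entered the test through the FTO siRNA libraries, so a fall of these 4 could not have been seen. Of the 5 that rose, CD2 lost its call without FTO siRNA 2, control 1 or control 2 (edgeR adjusted p up to 0.106). PTPRC, CD3D and CD74 kept theirs under all 13 alternatives, and NKG7 under the 12 that tested it. CD2 and NKG7 were not tested with the filter of at least 1 CPM in 3 libraries. PTPRC, the common leukocyte antigen, had 20, 20 and 20 counts in FTO siRNA 1, 2 and 3 and 0, 1 and 1 in controls 1, 2 and 3 (edgeR adjusted p = 0.00192). CD3D, a subunit of the T cell receptor complex, had 68, 33 and 57 counts in FTO siRNA 1, 2 and 3 and 5, 4 and 6 in controls 1, 2 and 3 (adjusted p = 0.00425). CD74, a chaperone of class II molecules, reached 12.1 ± 4.09 CPM in FTO siRNA libraries, against 2.91 ± 0.155 CPM in controls (SD, n = 3 each; edgeR adjusted p = 0.00471). The list summed to between 78.3 and 111 CPM in FTO siRNA libraries and between 51.6 and 102 CPM in controls, most of it LYZ, which had 71.7 CPM on average in FTO siRNA libraries and 72.8 CPM in controls. MS4A1, of B cells, was at 0 in every control and had 1, 5 and 2 counts in FTO siRNA 1, 2 and 3. The part of these transcripts in the LEF1 counts was not tested. Where these transcripts came from was not tested, and their counts do not show that such cells were in the cultures. In bulk RNA, more cells of a type and more RNA per cell cannot be told apart. Of 8 fibroblast markers, 6 could be tested and 3 rose, COL1A1, COL1A2 and TAGLN, where 7.53% of all tested genes rose. COL3A1, LUM and PDGFRB did not pass (log2 fold changes -0.09, 0.15 and 0.76, edgeR adjusted p = 0.894, 0.746 and 0.318). The list sum was 248 to 600.02 CPM in FTO siRNA libraries and 99.8 to 190 CPM in controls. DCN and THY1 were at 0 in every control, and in FTO siRNA 1, 2 and 3 had 6, 0 and 2 counts (DCN) and 3, 0 and 3 counts (THY1). COL1A1 lost its call without control 1 or control 2 (adjusted p up to 0.0922) and COL1A2 without any 1 of the controls (up to 0.0905). TAGLN, whose groups overlapped, lost it under 7 of the 13 alternatives, among them limma-voom (adjusted p = 0.0567) and each fit without 1 of the controls (up to 0.151). Of 4 endothelial markers 1 could be tested, PECAM1, and it did not pass (adjusted p = 0.161). The list summed to between 14.9 and 23.5 CPM in FTO siRNA libraries and between 20.3 and 25.5 CPM in controls. KDR had 0 counts in every library, and VWF had 0 in every control and 1, 4 and 4 in FTO siRNA 1, 2 and 3.

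**Figure D3:**
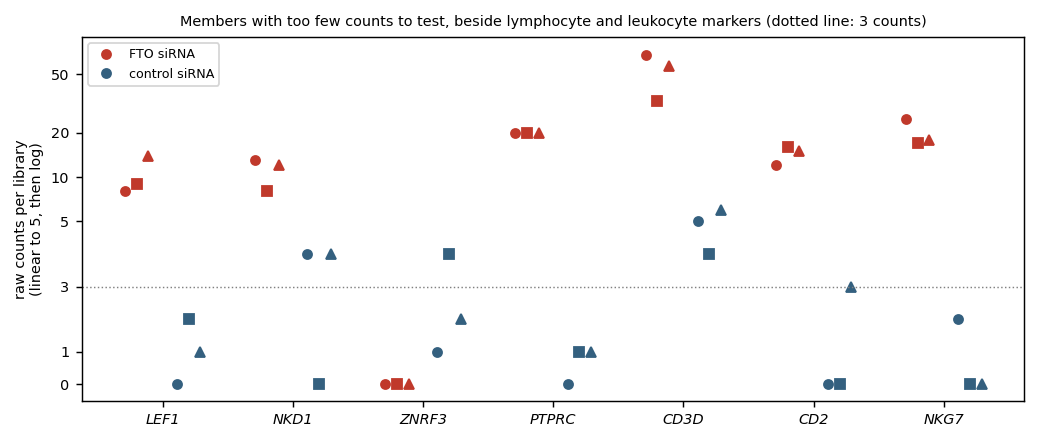
Raw counts per library (vertical axis, linear to 5 and logarithmic above) of the 3 members with too few counts to test, LEF1, NKD1 and ZNRF3, beside 4 lymphocyte and leukocyte markers, with FTO siRNA libraries left of controls. LEF1 had 8 to 14 counts with FTO siRNA and 0 to 2 with control siRNA, PTPRC had 20 and 0 to 1, and ZNRF3 had 0 with FTO siRNA.

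TBX3 and SP5 are transcription factors induced by beta-catenin, TBX3 as a repressor linked to liver tumours with active beta-catenin. TBX3 was at 34.5, 39.5 and 37.7 CPM in FTO siRNA 1, 2 and 3, against 41.6, 43.0 and 34.2 CPM in controls 1, 2 and 3. Control 3 was the lowest of the 6 libraries and the ranges overlapped. Its log2 fold change was -0.09 ± 0.15 SE (95% interval -0.43 to 0.26, edgeR adjusted p = 0.748). SP5, whose promoter held the 3 core matches above, was at 4.15, 5.44 and 3.78 CPM in FTO siRNA 1, 2 and 3, against 3.17, 2.80 and 2.48 CPM in controls 1, 2 and 3. All FTO siRNA values lay above all control values, with a mean of 4.46 ± 0.868 CPM with FTO siRNA and 2.82 ± 0.346 CPM with control siRNA (SD, n = 3 each). The log2 fold change of 0.66 ± 0.25 SE (95% interval 0.10 to 1.22) did not pass after correction (edgeR adjusted p = 0.124). It passed without FTO siRNA 3 (0.74 ± 0.24, adjusted p = 0.0406), and over the other alternatives the adjusted p was at most 0.341.

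Set against each other per kilobase of exon, the members covered a wide range of levels. The length used was that of all annotated exons of a gene joined. For TCF7 it was 10063 bases, against 5340 in its longest transcript, and for SP5 2060 against 2033. The order of members with close levels therefore depends on this choice of length. With FTO siRNA the mean CPM per kilobase was 47.6 for CTNNB1, 6.26 for TBX3, 3.30 for LGR5, 2.16 for SP5, 1.72 for RNF43, 1.37 for TCF7, 0.919 for AXIN2, 0.110 for LEF1, 0.0366 for NKD1 and 0 for ZNRF3. Over the 3 libraries LGR5 overlapped with SP5, SP5 with RNF43 and RNF43 with TCF7, so their order is not resolved. In controls it was 47.9 for CTNNB1, 6.65 for TBX3, 2.86 for RNF43, 2.43 for LGR5, 1.54 for TCF7, 1.37 for SP5 and 0.862 for AXIN2, and at most 0.0205 for ZNRF3, LEF1 and NKD1. Among these, RNF43 and LGR5 overlapped over the 3 controls, as did TCF7 and SP5. RNF43 was the fifth highest with FTO siRNA and the third highest in controls. AXIN2 and TBX3 held the same rank in both groups.

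Around the members, 106 other genes of the pathway were read in 10 groups by role, and 68 of them had enough counts to test. Of these 68, 7 rose and 2 fell, against 7.53% and 3.83% of all tested genes, and their median log2 fold change was 0.07. Of the 7 that rose, WNT9A, KREMEN2 and CYP2E1 had at most 7 counts in any control. They entered the test through the FTO siRNA libraries, so a fall of these could not have been seen. The counts of genes that rose and fell changed when a library was left out, as did the share of all tested genes that passed. Without FTO siRNA 3, 12 rose and 8 fell, where 15.9% and 14.1% of all tested genes did. Without FTO siRNA 1 or FTO siRNA 2, 6 rose and 2 fell, where 6.96% and 9% of all tested genes passed. Without control 1, 1 rose, where 2.11% of all tested genes passed. Without control 2, 0 passed, against 2.52% of all tested genes. Without control 3, 2 rose, where 4.93% of all tested genes passed.

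Among Wnt ligands, 5 of 19 could be tested and 2 rose, with a median of 0.31. WNT9A was at 2.05, 2.22 and 9.50 CPM in FTO siRNA 1, 2 and 3, against 0.127, 0.426 and 0.181 CPM in controls 1, 2 and 3 (log2 fold change 4.21 ± 0.85 SE, edgeR adjusted p = 0.0177). FTO siRNA 3 held most of its counts, and without that library the log2 fold change was 3.05 (adjusted p = 0.00161). The call was lost without control 1 (adjusted p = 0.0905), control 2 (0.0581) or control 3 (0.0687). WNT10B was at 6.14, 4.01 and 7.10 CPM in FTO siRNA 1, 2 and 3, against 2.41, 2.68 and 3.02 CPM in controls 1, 2 and 3, with no overlap (1.09 ± 0.27 SE, edgeR adjusted p = 0.0381). Its call was lost with limma-voom, without FTO siRNA 1 and without any 1 of the controls (adjusted p up to 0.177). PORCN, which acylates Wnt proteins so that they can leave the cell, did not pass (0.32 ± 0.20 SE, adjusted p = 0.317), and WLS, their carrier, had too few counts.

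Of the 15 Frizzled receptors and co-receptors, 12 could be tested and 0 passed by edgeR, DESeq2 or limma-voom (1 lower at unadjusted p under 0.05, FZD1), with a median log2 fold change of -0.11. The most abundant were the co-receptor LRP5, with 229, 219 and 356 CPM in FTO siRNA 1, 2 and 3 against 302, 285 and 277 CPM in controls 1, 2 and 3, and FZD5, with a mean of 189 CPM with FTO siRNA and 219 CPM with control siRNA. FTO siRNA 3 was above every control for LRP5 and the other 2 libraries of its group below every control.

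R-spondins were close to absent: RSPO1 and RSPO2 had 0 counts in every library, and RSPO3 and RSPO4 had 0 in every control and at most 5 in an FTO siRNA library. Of their other receptors, LGR4 was abundant and fell, and LGR6 had at most 2 counts. LGR4, the close relative of LGR5, was at 176, 225 and 204 CPM in FTO siRNA 1, 2 and 3, against 329.8, 340.2 and 316 CPM in controls 1, 2 and 3. The highest FTO siRNA value lay well below the lowest control value, and the fitted level was 0.613 of the control level (log2 fold change -0.71 ± 0.15 SE, edgeR adjusted p = 0.0209). Without control 1, control 2 or control 3 the call was lost, with an adjusted p up to 0.115 and log2 fold changes of -0.73 without control 1, -0.69 without control 2 and -0.76 without control 3.

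Secreted and membrane inhibitors held 15 genes, 7 of them tested, of which 2 rose and none fell by edgeR (median 1.09), and DESeq2 also called NOTUM higher (adjusted p = 0.0119). KREMEN2 and NOTUM, with at most 9 counts in any control, entered the test and the median through the FTO siRNA libraries. DKK3, a secreted protein of the Dickkopf family, was at 54.4, 65.8 and 35.5 CPM in FTO siRNA 1, 2 and 3, against 17.4, 21.3 and 29.04 CPM in controls 1, 2 and 3 (1.201 ± 0.27 SE, edgeR adjusted p = 0.0254). KREMEN2, a receptor for Dickkopf proteins that takes LRP6 from the surface, had 27, 20 and 22 counts in FTO siRNA 1, 2 and 3, against 4, 6 and 3 in controls 1, 2 and 3 (2.29 ± 0.42 SE, edgeR adjusted p = 0.0125). Both groups of values were apart in each case. DKK3 lost its call without FTO siRNA 1, FTO siRNA 2, control 1 or control 2 (adjusted p up to 0.122) and KREMEN2 without any 1 of the controls (up to 0.0765).

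In the cytoplasm, 13 of 14 genes of the relay and the destruction complex could be tested and 0 passed by edgeR or limma-voom (1 at unadjusted p under 0.05, APC, which DESeq2 called lower), with a median of -0.12. The relay protein DVL3 had 197 CPM on average with FTO siRNA and 232 CPM with control siRNA, and the kinase GSK3B had 123 CPM with FTO siRNA and 151 CPM with control siRNA. APC, named after its values were seen, was at 29.9, 42.5 and 43.0 CPM in FTO siRNA 1, 2 and 3, against 61.7, 54.9 and 58.6 CPM in controls 1, 2 and 3, with no overlap (-0.60 ± 0.17 SE, edgeR adjusted p = 0.0589). Among nuclear partners of beta-catenin all 12 were tested and 0 passed by edgeR, DESeq2 or limma-voom (2 higher and 1 lower at unadjusted p under 0.05), with a median of -0.05. The most abundant of these were CHD8, a chromatin remodeller that restrains beta-catenin (166 CPM with FTO siRNA and 215 CPM with control siRNA), and TLE1, a corepressor of TCF proteins (184 CPM with FTO siRNA and 167 CPM with control siRNA). Of 5 adherens junction partners, which hold beta-catenin at the membrane, 0 passed by edgeR, DESeq2 or limma-voom (0 at unadjusted p under 0.05), with CTNNA1 at 449.9 CPM with FTO siRNA and 409 CPM with control siRNA, and CTNND1 at 397 CPM with FTO siRNA and 386 CPM with control siRNA.

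Other target genes did not move one way. Of 10 further general targets, 7 could be tested, 2 rose and 1 fell by edgeR (median 0.42), and DESeq2 also called TNFRSF19 higher (adjusted p = 0.0314). MYC, a driver of growth, was at 271, 240 and 290 CPM in FTO siRNA 1, 2 and 3, against 139, 155 and 172 CPM in controls 1, 2 and 3 (0.78 ± 0.15 SE, edgeR adjusted p = 0.0153). CD44, a hyaluronan receptor, was at 234, 185 and 111 CPM in FTO siRNA 1, 2 and 3, against 26.2, 50.8 and 60.01 CPM in controls 1, 2 and 3 (1.95 ± 0.35 SE, edgeR adjusted p = 0.0123), and leukocytes and fibroblasts, whose markers are given above, also express it. Whether such cells were in the cultures was not tested. SP8, a relative of SP5, was at 14.7, 20.3 and 21.5 CPM in FTO siRNA 1, 2 and 3, against 35.1, 37.7 and 30.7 CPM in controls 1, 2 and 3, below every control (-0.87 ± 0.19 SE, edgeR adjusted p = 0.0223). MYC and SP8 lost their calls without any 1 of the controls (adjusted p up to 0.114) and CD44 without control 2 (0.0579).

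The pericentral hepatocyte list held 8 genes, 5 of them tested, of which 1 rose and none fell by edgeR (median 0.03), while DESeq2 also called 1 lower, GLUL. CYP2E1, a cytochrome P450, had 21, 25 and 16 counts in FTO siRNA 1, 2 and 3, against 5, 3 and 6 in controls 1, 2 and 3 (2.04 ± 0.45 SE, edgeR adjusted p = 0.025), and the call was lost without FTO siRNA 1, without FTO siRNA 2 and without any 1 of the controls (adjusted p up to 0.123). CYP2E1 was not tested with the filter of at least 1 CPM in 3 libraries. GLUL, glutamine synthetase and the best known pericentral target, named after its values were seen, was at 301, 345 and 267 CPM in FTO siRNA 1, 2 and 3, against 462, 424 and 382 CPM in controls 1, 2 and 3. It lay below every control in all 3 libraries; it did not pass by edgeR (-0.47 ± 0.16 SE, adjusted p = 0.0974) and passed by DESeq2 (adjusted p = 0.0344).

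**Figure D4:**
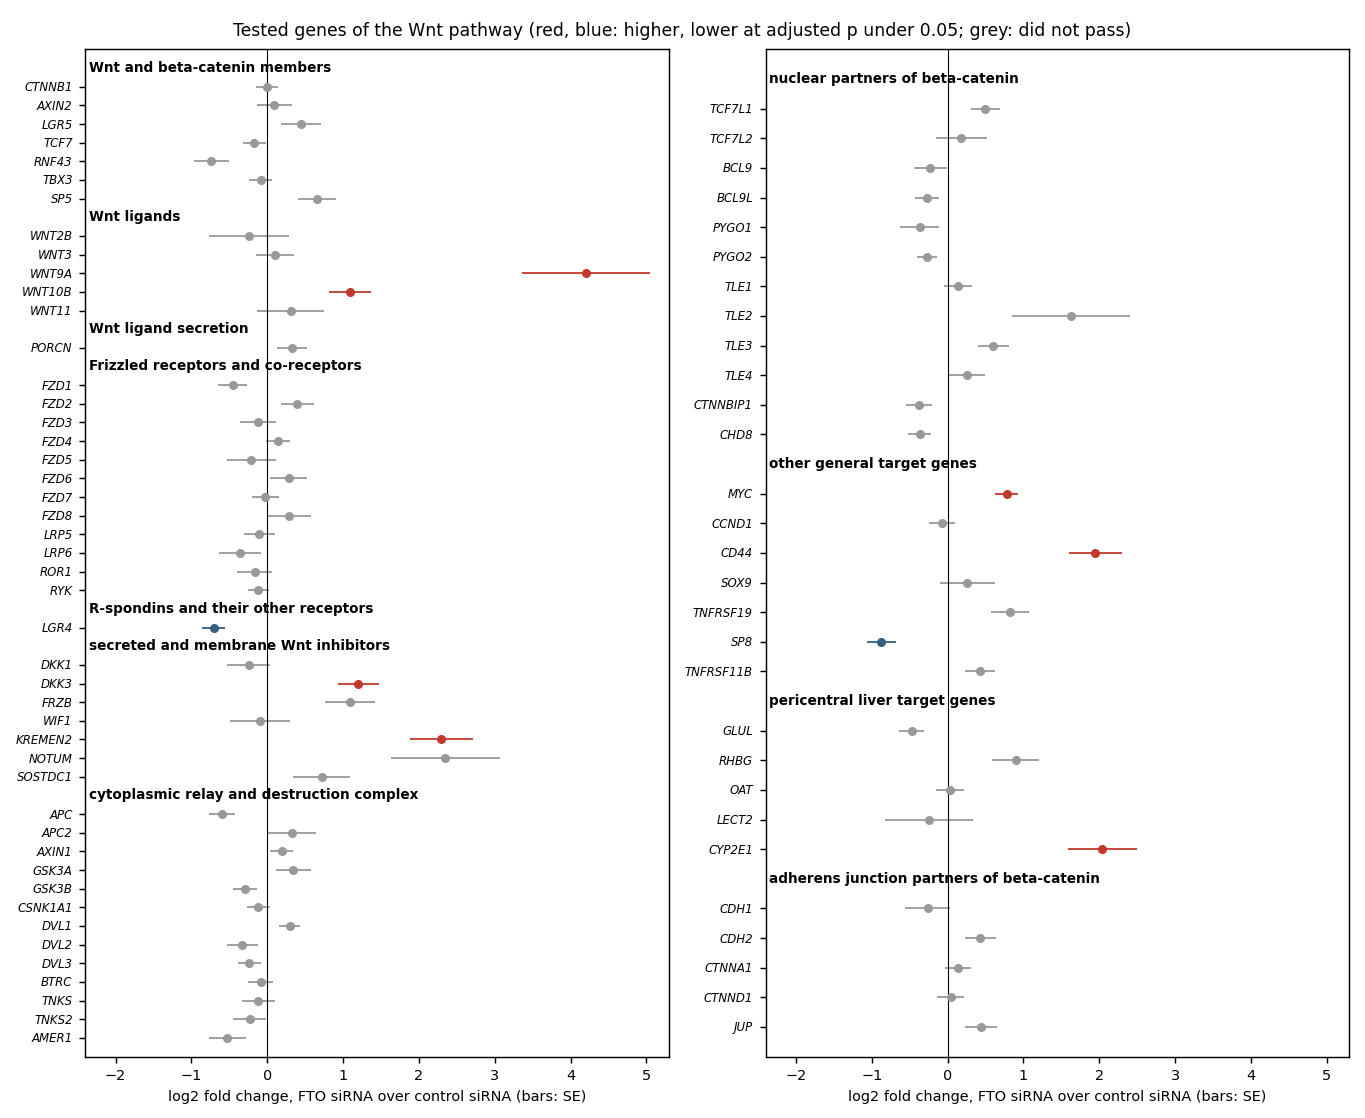
Log2 fold change, FTO siRNA over control siRNA (horizontal axis, bars are SE), of the 7 tested members and the 68 other tested pathway genes, grouped by role. No member passed an adjusted p of 0.05; WNT9A, WNT10B, DKK3, KREMEN2, MYC, CD44 and CYP2E1 were higher and LGR4 and SP8 lower.

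How the calls changed with the libraries in the fit is shown for 2 members and 2 pathway genes. RNF43 and SP5 came under 0.05 when FTO siRNA 3 was left out, and LGR4 and MYC went above it when any 1 of the controls was. In those fits without a control, 2.11% to 4.93% of all tested genes passed. The log2 fold change there stayed between -0.76 and -0.69 for LGR4 and between 0.68 and 0.83 for MYC.

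**Figure D5:**
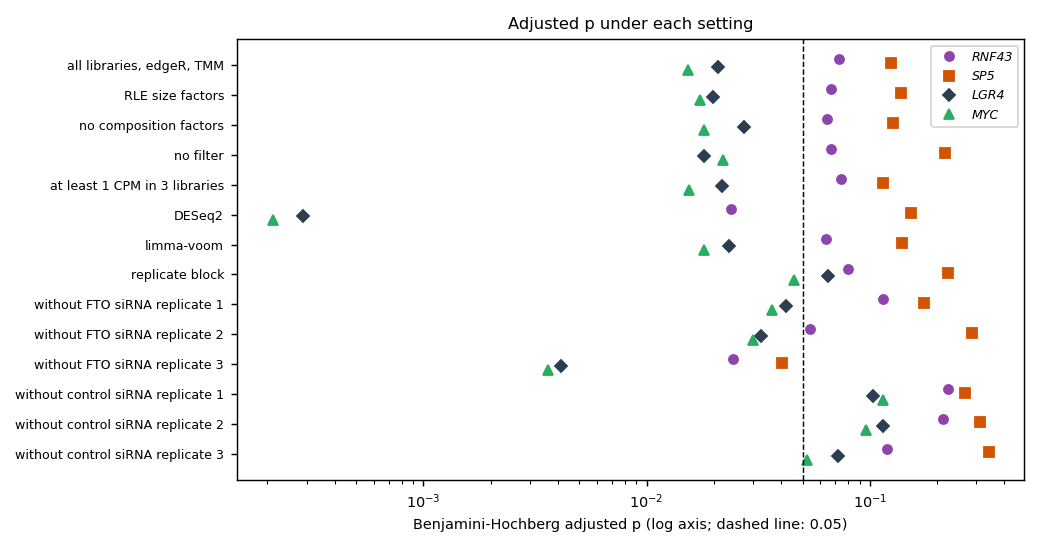
Adjusted p (horizontal log axis, dashed line at 0.05) of RNF43, SP5, LGR4 and MYC with all libraries and under each of the 13 alternatives. RNF43 was under 0.05 with DESeq2 and without FTO siRNA 3, SP5 without FTO siRNA 3, and LGR4 and MYC were above it without any 1 of the controls.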

How the data were processed

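RNA sequencing of total RNA from HepG2 was analysed in 6 libraries, with groups from the labels and replicate numbers from their titles. The authors deposited raw counts per Ensembl gene, 1 table per library. Per the submitters' processing notes, which give no role or order, TopHat2 2.0.11, TopHat and HTSeq were used with builds hg19 and GRCh37; for read length, strand and counting rules, the sources used here say nothing. Chromosomes and exon lengths came from GENCODE 29, which 56753 of the 60483 identifiers matched without regard to version, 37168 of them with the same version. Symbols came from a list of current gene names, and from GENCODE 29 where that list had none. Counts were tested with edgeR 4.0.16 in R 4.3.3 (filterByExpr by group, TMM, glmQLFit and glmQLFTest, two-sided, Benjamini-Hochberg over 15025 genes, threshold 0.05). The fit was first tested on simulated data with known fold changes. It called 0% of 67 genes changed 1.5-fold, 31.3% of 67 changed 2-fold and 81.8% of 66 changed 4-fold. The simulation had 79 calls in all, where the data had 1707. Alternatives were RLE or no composition factors, no filter, at least 1 CPM in 3 libraries, DESeq2 1.42.0, limma-voom (limma 3.58.1), the replicate block and each library left out. No 2 libraries agreed within sampling noise. The members, lists and the rule for named genes were chosen with earlier results of these data known. The rule named, per list, up to 4 genes that passed or else the 1 or 2 most abundant. Among genes named outside it, APC, GLUL and those added without FTO siRNA 3 are marked as such. FZD1 was named by its unadjusted p, and NOTUM and TNFRSF19 by their DESeq2 calls. Counting intervals are exact binomial at 95%.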

Additional observations from a re-analysis of the deposited data

How the results depend on the processing

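The counts of called genes depended on which libraries were in the fit. Over fits with 1 library left out, all genes called higher ranged from 236 to 2430 and lower from 94 to 2152 (1132 and 575 with all), members from 0 to 1 in each direction, pathway genes higher from 0 to 12 and lower from 0 to 8 (7 and 2 with all). Without FTO siRNA 3 the members called were SP5, higher, and RNF43, lower. DESeq2 called 1029 genes lower (6.85% of all tested), 1 of 7 tested members lower (RNF43) and 4 of 68 tested pathway genes lower. With no filter 1 of 10 members was called higher, LEF1, where 3.56% of the 33571 genes in that fit were. The replicate block gave 736 genes higher and 305 lower, and 1 pathway gene lower. Same-numbered libraries did not deviate together from their group means (r = -0.138, -0.0643 and -0.248 across genes). With 3 libraries per group and FTO siRNA 3 apart from the others, this cannot exclude a pairing by number. With the block WNT10B, LGR4, DKK3 and CYP2E1 also lost their calls. Over fits with 1 library left out, the log2 fold change of CTNNB1 ranged from -0.059 to 0.016 (above 0 without control 2), and that of AXIN2 from -0.014 to 0.22 (below 0 at -0.014 without FTO siRNA 3 and at -0.0051 without FTO siRNA 2). The cause of these changes was not tested. RLE factors, no composition factors, limma-voom and the 1 CPM filter left each of these counts within 1.5 times. Depth leaves NKD1, LEF1 and ZNRF3 at counts too low for the test.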

Other observations

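Without FTO siRNA 3, 20 of the 68 other pathway genes tested passed, where 30% of all tested genes did, so this share is near the background. They include all 9 that passed with all libraries. Of the 11 added, the co-receptors LRP5 (log2 fold change -0.39) and LRP6 (-0.76), the destruction complex genes APC (-0.71) and AMER1 (-0.76), GLUL (-0.41) and CDH1 (-0.66) were lower. GSK3A (0.54), the relay gene DVL1 (0.34), the TCF protein gene TCF7L1 (0.54), RHBG (1.00) and JUP (0.59) were higher. These were named after their values were seen.

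The genes whose level ran most like that of AXIN2 over the 6 libraries were DTX2P1, a transcribed pseudogene, LIMCH1 and IQGAP1. Their root mean square difference from AXIN2, in log2 CPM centred on each gene's own mean, was 0.0597, 0.0684 and 0.0711. IQGAP1 was at 334, 435 and 471 CPM in FTO siRNA 1, 2 and 3, against 353, 401 and 430 CPM in controls 1, 2 and 3.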
